A study of Arabidopsis thaliana with 12 samples.

Results

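Messenger RNA levels of 64 meiosis and recombination genes were followed in Arabidopsis thaliana flowers before and after a short heat exposure, in the wild type and in a mutant of XBAT31. The genes were those of 27715 in the deposited table whose gene ontology annotation there named the meiotic cell cycle or reciprocal meiotic recombination, without DNA replication or the nucleosome. The meiotic cell cycle term was carried by 33 of them and the recombination term by 36, with 5 carrying both. No measured value was used to choose them. Flowers of stages 1 to 12 were kept at 22 °C, the normal temperature, or taken after 3 hours at 38 °C, and poly(A) RNA was sequenced. The groups were the wild type at 22 °C, the wild type at 38 °C, the XBAT31 mutant at 22 °C and the XBAT31 mutant at 38 °C, each with 3 libraries made from 9 flowers each. The sources used here do not name the strain, the mutant allele or the plants' age, nor do they say whether replicates came from separate plants; p-values therefore measure the spread between these libraries.

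Meiosis reduces the chromosome set by following a single replication of the DNA with a pair of divisions. In prophase, programmed DNA breaks made by SPO11 are trimmed to single strands, coated by replication protein A and then by recombinases such as DMC1, and repaired from the homologous chromosome; some repairs mature into crossovers while other proteins limit crossover number. Chromosome axes and the synaptonemal complex hold homologs side by side meanwhile. In flowers of these stages meiocytes make up a small part of the tissue, and several of these proteins, the BRCA2 proteins, ATM and ATR among them, also serve DNA repair in dividing somatic cells. XBAT31 is a RING-type ubiquitin ligase with ankyrin repeats.

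The libraries held between 44983198 and 63088433 deposited counts, of which the 64 genes took 0.15% to 0.193%. XBAT31 itself, the check of the genotype labels, lay between 45.3 and 55.7 FPKM (fragment counts scaled for transcript length and library size) in the mutant libraries and between 95.3 and 110.1 FPKM in the wild type. It was lower in the mutant at both temperatures but not absent. The heat label was checked with HSP18.2, a small heat shock protein gene, with 4.31 to 8.06 FPKM at 22 °C and 564 to 992 FPKM at 38 °C. On the second principal component 3 libraries had the lowest scores. They were replicate 2 of the unheated mutant (-88.3), replicate 1 of the heated mutant (-45.3) and replicate 2 of the heated wild type (-43.4). The heated mutant was spread widely, with replicates 2 and 3 at 28.3 and -6.56. The first of these was the highest of the 12 libraries for 34 of the 63 genes tested, against 15.3% of all genes. In whole flowers, fewer cells of a type and less RNA per cell cannot be told apart.

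Most of the genes were of middling abundance. Their median level was 7.09 FPKM over the 12 libraries, against 7.81 FPKM for all genes, with 24 genes at 10 FPKM or more, 33 between 1 and 10 FPKM and 7 under 1 FPKM. Among the highest means were those of AT1G65010 (31.7 FPKM), GRIP, a Golgi coiled-coil protein (30.3 FPKM), AT5G16730 (28.5 FPKM) and AXR1, a neddylation enzyme that affects where crossovers form (24.2 FPKM). The lowest were those of AT1G52950, annotated as similar to replication protein A (0.033 FPKM), MMD1, a meiocyte chromatin reader (0.261 FPKM), SWI1, needed for sister chromatid cohesion (0.513 FPKM), SPO11-2 (0.572 FPKM) and TDM1, which controls exit from meiosis (0.645 FPKM). AT1G52950, at 0 in 7 libraries, did not pass the filter on low counts, and the other 63 genes were tested.

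**Figure D1:**
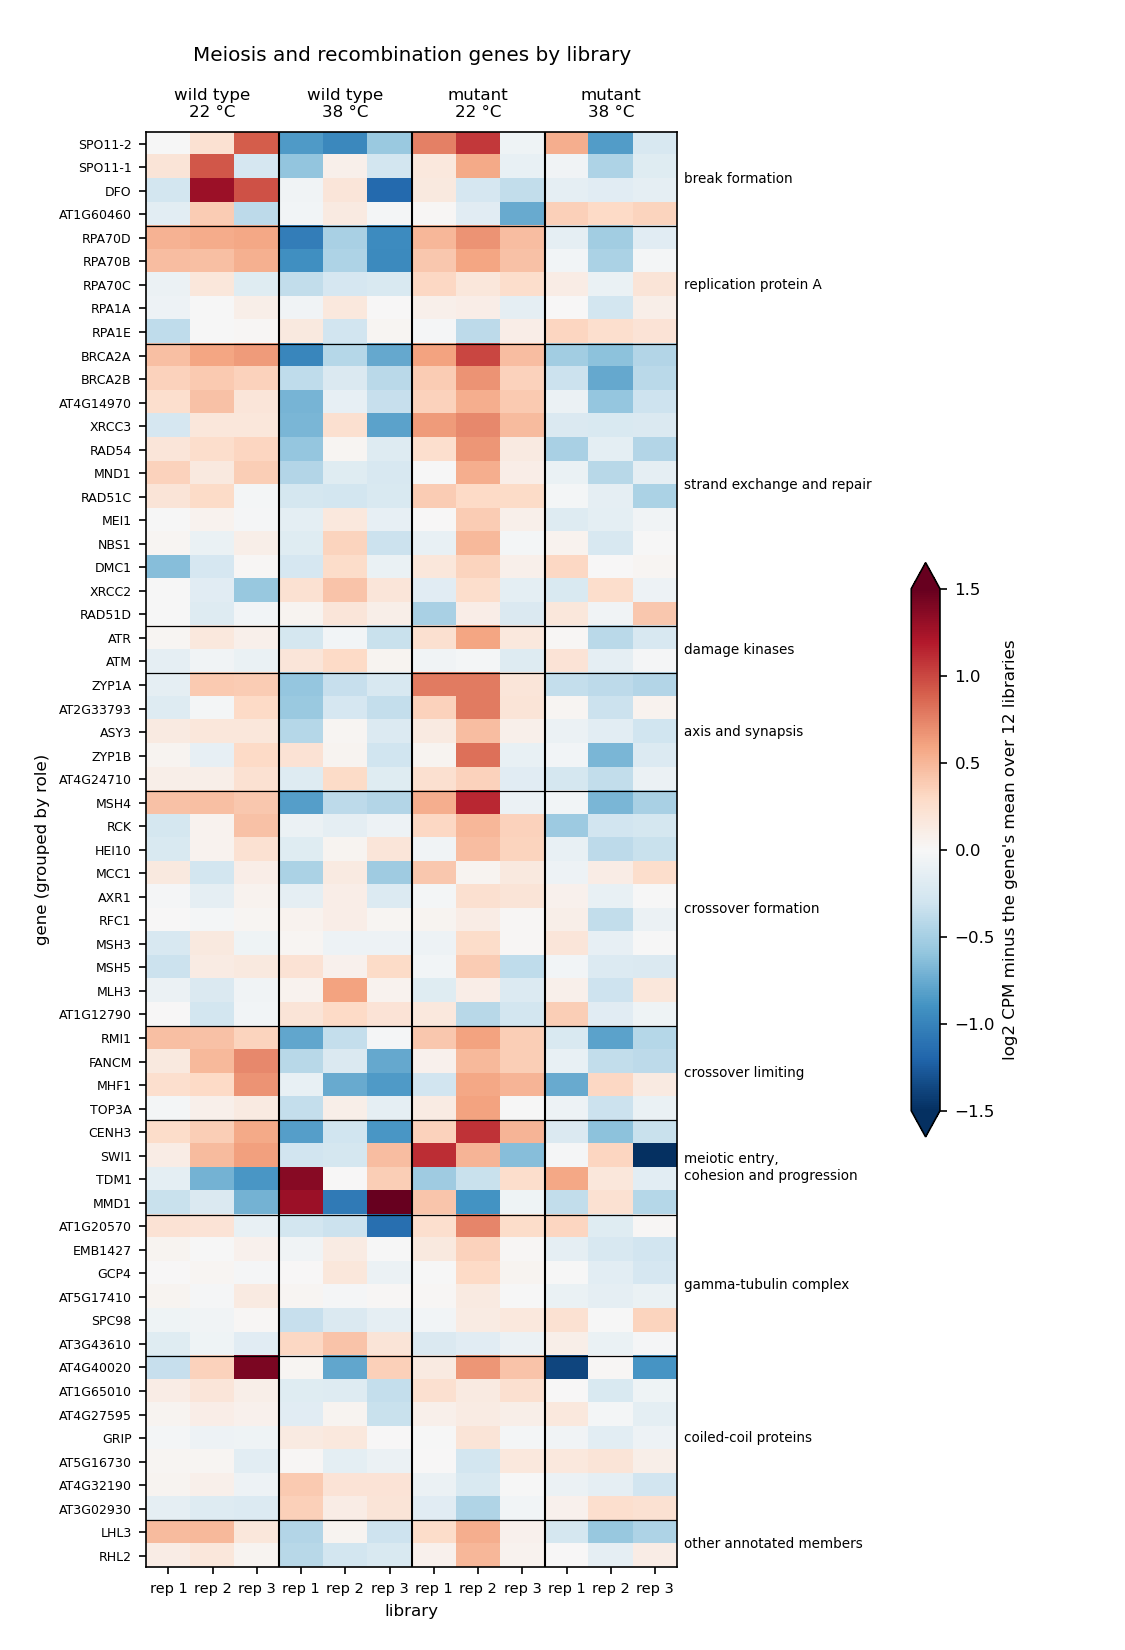
Level of tested genes in each library, as log2 CPM (counts scaled to library size) minus the gene's mean over the 12 libraries; genes are grouped by role and libraries by group, and red is above and blue below the gene's own mean. BRCA2A, BRCA2B, RPA70B, RPA70D and CENH3 are red at 22 °C and below their own means at 38 °C in both genotypes. In heated mutant replicates 1 and 3 RPA70B (-0.04 and -0.03) and RPA70D (-0.13 and -0.17) are pale. Mutant replicate 2 at 22 °C is the highest library for 34 of the 63 genes.

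The first question was how 3 hours at 38 °C changed these genes in wild-type flowers. By edgeR's quasi-likelihood test with Benjamini-Hochberg adjustment over 23585 genes, 17 of the 63 genes fell and 2 rose at an adjusted p below 0.05, and 44 did not pass. The share that fell, 27.0%, stood beside 16.4% of all genes tested, and 14.3% of all genes rose, so 30.7% passed in either direction. The median log2 fold change was -0.21 for the 63 genes and -0.05 for all genes. On counts scaled to library size (CPM), the 3 libraries at 38 °C all lay below the 3 at 22 °C for 25 genes and above them for 11, where the background was 26.3% and 21.6% of all genes. Among the genes that passed, RPA70D, BRCA2A, RPA70B and CENH3 fell the most, each to under 50% of its 22 °C level.

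The split of calls moved with the scaling: with DESeq2 size factors in edgeR 5 genes rose and 14 fell. Tools that also change the test or the measure gave 8 higher and 19 lower (DESeq2) and 7 higher and 11 lower (limma on log2(FPKM + 1)). The split over all genes moved too, from 3375 higher of 7241 calls in the main fit to 3798 of 7079 with DESeq2 size factors. DESeq2 gave 4646 higher of 8914 and limma 4367 of 7062. The count of 19 became 11 without wild-type replicate 1 at 38 °C. It became 12 without wild-type replicate 2 at 22 °C and 12 without wild-type replicate 3 at 22 °C. Calls over all genes fell as well, from 7241 to 5139, 5587 and 5551. RPA70D, BRCA2A, RPA70B, BRCA2B, CENH3, FANCM, AT1G65010, AT4G14970 and AT3G43610 passed whichever single library was left out.

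In the mutant the same exposure lowered 21 of the 63 genes and raised 1, and 41 did not pass. The share that fell was 33.3%, beside 13.6% of all genes tested; 11.3% of all genes rose, so 24.9% passed in either direction. The median was -0.30, beside -0.0025 for all genes. On CPM, mutant libraries at 38 °C all lay below those at 22 °C for 27 genes and above them for 4, against 21.7% and 19.6% of all genes. BRCA2A, CENH3, ZYP1A and MSH4 had some of the lowest log2 fold changes among the genes that passed. The count of 22 became 14 without replicate 2 of the unheated mutant, also 14 without replicate 3 of the heated mutant, and 13 when only the mutant libraries were fitted. CENH3, ZYP1A, EMB1427, BRCA2A, BRCA2B, AT4G14970, RPA70B, RPA70D and RMI1 passed whichever single library was left out.

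The 2 heat comparisons contrast different libraries, and their values were set side by side. Both came from the same fit over the 12 libraries, with shared scaling and spread, so their calls are not independent. Of the genes that fell, 14 did so in both genotypes, which is 82.4% of the wild-type list and 66.7% of the mutant list, among them BRCA2A, BRCA2B, RAD51C, AT4G14970, RPA70B, RPA70D, ZYP1A, MSH4, FANCM, RMI1, CENH3, LHL3 and AT1G65010. AT3G02930 rose in both, no gene passed in opposite directions, and 37 genes passed in neither. Over the 63 genes the log2 fold changes of both genotypes had Pearson's r of 0.71 and Spearman's rho of 0.80, and 52 had the same sign. These values are a description across genes that share libraries within each comparison. The joint counts and correlations were not worked out over all genes, so nothing here marks the agreement as particular to this set. BRCA2A, BRCA2B, RPA70B, RPA70D and CENH3 passed in both genotypes under all 23 alternative settings. The wild-type list held MND1, RHL2 and MHF1 besides, and the mutant list held RAD54, ATR, ASY3, AT2G33793, HEI10, RCK and EMB1427; by edgeR none of these 10 genes passed the test of the difference between the genotypes (lowest adjusted p = 0.157, EMB1427), while DESeq2 called EMB1427 (adjusted p = 0.0271).

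**Figure D2:**
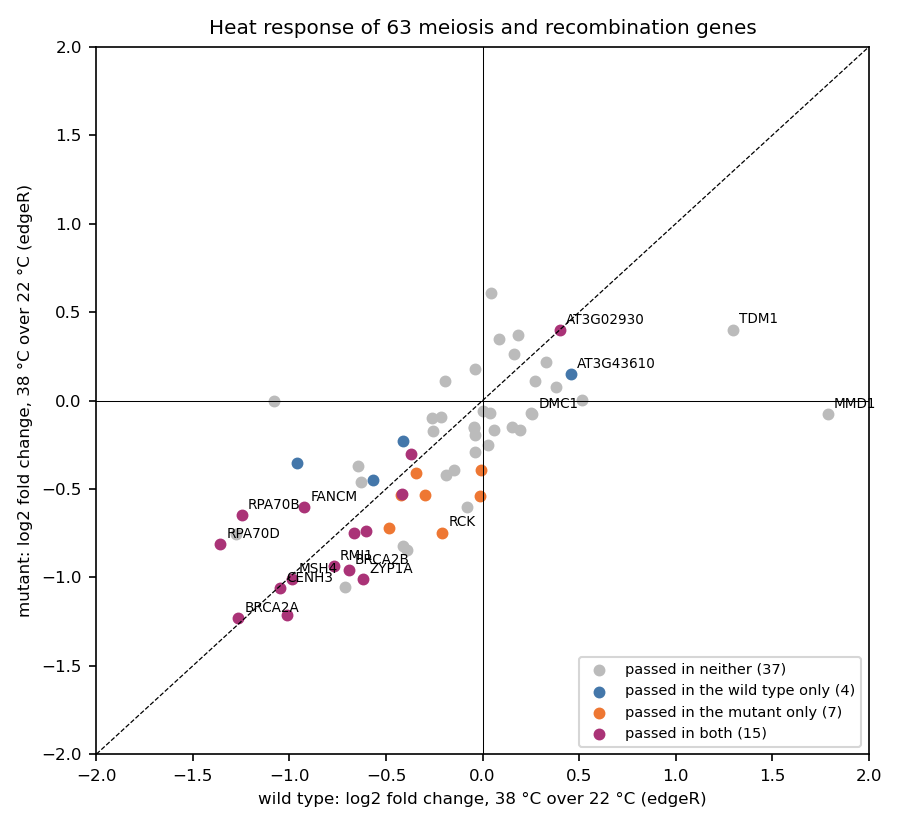
Log2 fold change at 38 °C over 22 °C in the wild type (x axis) and the mutant (y axis) for the 63 tested genes, coloured by whether the gene passed the threshold in both, 1 or neither genotype; the dashed line marks equal change. The 14 genes lower in both genotypes lie in the lower left, RPA70B and RPA70D lie above the line, and DMC1 lies close to 0 on both axes.

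The genes were also read by 12 other annotation terms that were not used to choose them, of which 3 are given here, picked after their values were seen. Of the 15 tested genes that also carried the term for double-strand break repair by homologous recombination, 8 fell in the wild type and 9 in the mutant, with medians of -0.49 and -0.60. Of the 48 without it, 9 and 12 fell, with medians of -0.17 and -0.27. The broader term for DNA repair showed no such gap in medians: 5 and 6 of its 14 genes fell, with medians of -0.22 and -0.30, beside -0.21 and -0.30 for the 49 without it. Of the 10 genes with the term for synapsis 4 and 3 fell, with medians of -0.62 and -0.53, beside -0.19 and -0.23 for the other 53. These counts are descriptions, since genes of a shared pathway do not vary independently.

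**Figure D3:**
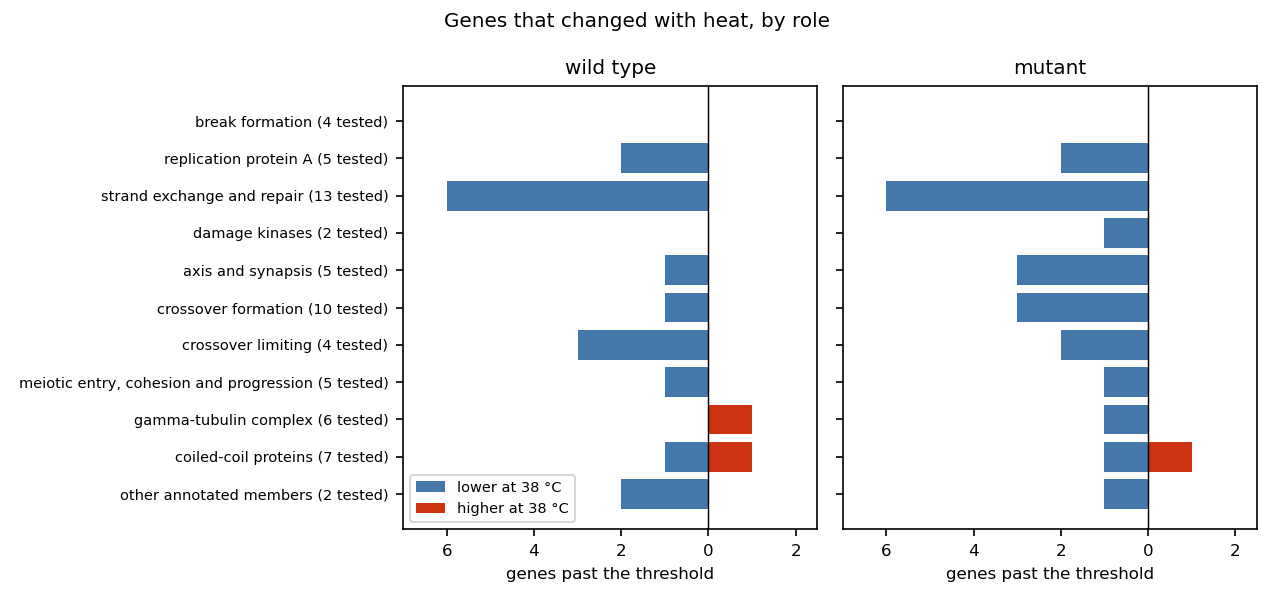
Number of genes in each role past the threshold in the wild type (left) and the mutant (right); bars to the left of the line count genes lower at 38 °C and bars to the right genes higher, and the number tested is given with each role. Strand exchange and repair holds 6 genes that fell in each genotype, and break formation holds none. Of all genes tested, 16.4% fell and 14.3% rose in the wild type, and 13.6% fell and 11.3% rose in the mutant.

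The strand exchange group held genes that fell and genes that did not pass. DMC1, the recombinase that acts only in meiosis, was at 13.6, 17.7 and 20.5 FPKM in the wild type at 22 °C and 18.6, 27 and 20.8 at 38 °C. In the mutant DMC1 was at 23.7, 27.2 and 22.3 FPKM at 22 °C and 28.6, 22.4 and 23.7 at 38 °C. Its groups overlapped in both genotypes, with the lowest value in wild-type replicate 1 at 22 °C, and DMC1 passed in no comparison (log2 fold change 0.26, adjusted p = 0.289, SE 0.17 in the wild type and -0.08, adjusted p = 0.782, SE 0.17 in the mutant).

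The 2 BRCA2 genes, whose proteins load recombinases onto single-stranded DNA, fell in both genotypes. BRCA2A was at 9.17, 10.1 and 10.1 FPKM in the wild type at 22 °C and 3.59, 5.27 and 4.16 at 38 °C. In the mutant BRCA2A was at 10.2, 13.8 and 9.29 FPKM at 22 °C and 5.14, 4.66 and 5.43 at 38 °C. Heated and unheated libraries did not overlap, and the lowest heated value came from wild-type replicate 1. The drop was to 41.6% of the 22 °C level in the wild type (log2 fold change -1.27, adjusted p = 1.57e-04, SE 0.16) and to 42.6% in the mutant (log2 fold change -1.23, adjusted p = 3.82e-04, SE 0.16). BRCA2B was at 7.52, 7.77 and 7.24 FPKM in the wild type at 22 °C and 4.75, 5.39 and 4.72 at 38 °C. In the mutant BRCA2B was at 7.71, 9.63 and 7.51 FPKM at 22 °C and 5.19, 3.67 and 4.93 at 38 °C. It fell without overlap to 61.8% (log2 fold change -0.69, adjusted p = 0.00172, SE 0.12) and 51.5% (log2 fold change -0.96, adjusted p = 4.61e-04, SE 0.13) of the 22 °C level. The 2 genes are close copies, so reads may have been divided between them in a way the counts do not show.

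Of the 13 strand exchange and repair genes, 6 fell in the wild type and 6 in the mutant, BRCA2A and BRCA2B among them. The shares of all genes that fell were 16.4% and 13.6%. AT4G14970, annotated as the Fanconi anemia group D2 protein, fell in both (log2 fold change -0.67, adjusted p = 0.00909, SE 0.16 and -0.75, adjusted p = 0.00684, SE 0.16). RAD51C, which serves repair by recombination, fell by less (log2 fold change -0.42, adjusted p = 0.0417, SE 0.14 in the wild type and -0.53, adjusted p = 0.0190, SE 0.14 in the mutant). Its wild-type call was lost without any single library other than mutant replicates 1 and 3 at 38 °C, and its mutant call without mutant replicate 1 at 22 °C or replicate 3 at 38 °C. MND1, which with HOP2 stimulates strand invasion, fell in the wild type (log2 fold change -0.57, adjusted p = 0.0160, SE 0.15) but not without replicate 3 at 22 °C or replicate 1 at 38 °C, and had -0.45, adjusted p = 0.0529, SE 0.15 in the mutant. RAD54, a motor protein of strand exchange, fell in the mutant (log2 fold change -0.72, adjusted p = 0.0128, SE 0.18) but not without replicate 2 at 22 °C, and had -0.49, adjusted p = 0.0563, SE 0.18 in the wild type. The repair genes RAD51D, XRCC2 and XRCC3, the break sensor NBS1 and MEI1, a protein with BRCT repeats, passed in neither genotype, with log2 fold changes between -0.39 (XRCC3) and 0.51 (XRCC2) in the wild type and between -0.84 (XRCC3) and 0.37 (RAD51D) in the mutant. For XRCC3 in the mutant the adjusted p was 0.0532, with a range of 0.0176 to 0.132 over the alternatives. XRCC2, at 7.76, 6.92 and 5.03 FPKM at 22 °C and 9.6, 11.1 and 9.35 at 38 °C in the wild type, was higher in each heated library, and its adjusted p was 0.0552 (0.0359 with DESeq2 size factors).

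Replication protein A coats single-stranded DNA, and its large subunit is encoded by a small family in Arabidopsis. RPA70B was at 17.7, 17.5 and 17.8 FPKM in the wild type at 22 °C and 7.1, 9.8 and 6.95 at 38 °C. In the mutant RPA70B was at 16.9, 19.8 and 17.4 FPKM at 22 °C and 13.7, 9.8 and 13.8 at 38 °C. The wild-type libraries at 22 °C were close to each other, and each heated library lay below each unheated one in both genotypes. RPA70B fell to 42.1% in the wild type (log2 fold change -1.25, adjusted p = 1.19e-04, SE 0.15) and to 63.9% in the mutant (log2 fold change -0.65, adjusted p = 0.00838, SE 0.15). RPA70D was at 24.8, 25.4 and 24.9 FPKM in the wild type at 22 °C and 8.81, 13 and 9.5 at 38 °C. In the mutant RPA70D was at 24.4, 28.3 and 23.8 FPKM at 22 °C and 17.3, 12.8 and 16.9 at 38 °C. Its 3 heated wild-type libraries were the lowest of the 12 but for 1 overlap, wild-type replicate 2 at 13 FPKM beside mutant replicate 2 at 12.8 FPKM. RPA70D fell to 39% (log2 fold change -1.36, adjusted p = 5.99e-05, SE 0.14) and 56.9% (log2 fold change -0.81, adjusted p = 0.00222, SE 0.14).

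The remaining large subunit genes did not pass with heat. RPA1A, the family member known for its part in crossover formation, was at 16.1, 16.8 and 17.4 FPKM in the wild type at 22 °C, 17.1, 20 and 18 at 38 °C, 17.8, 18.6 and 15.5 in the mutant at 22 °C and 18.7, 14.9 and 19.7 at 38 °C, and its groups overlapped (log2 fold change 0.04, adjusted p = 0.828, SE 0.11 and -0.07, adjusted p = 0.661, SE 0.11). RPA70C ran from 5.51 to 8.56 FPKM (log2 fold change -0.26, adjusted p = 0.104, SE 0.11 in the wild type and -0.17, adjusted p = 0.281, SE 0.11 in the mutant) and RPA1E from 1.62 to 2.94 FPKM (0.09, adjusted p = 0.771, SE 0.19 and 0.35, adjusted p = 0.202, SE 0.19). On the FPKM scale RPA1A stood at 0.907 to 0.976 times RPA70B in the wild type at 22 °C and at 2.04 to 2.59 times at 38 °C. The mutant had 0.888 to 1.06 and 1.36 to 1.52.

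**Figure D4:**
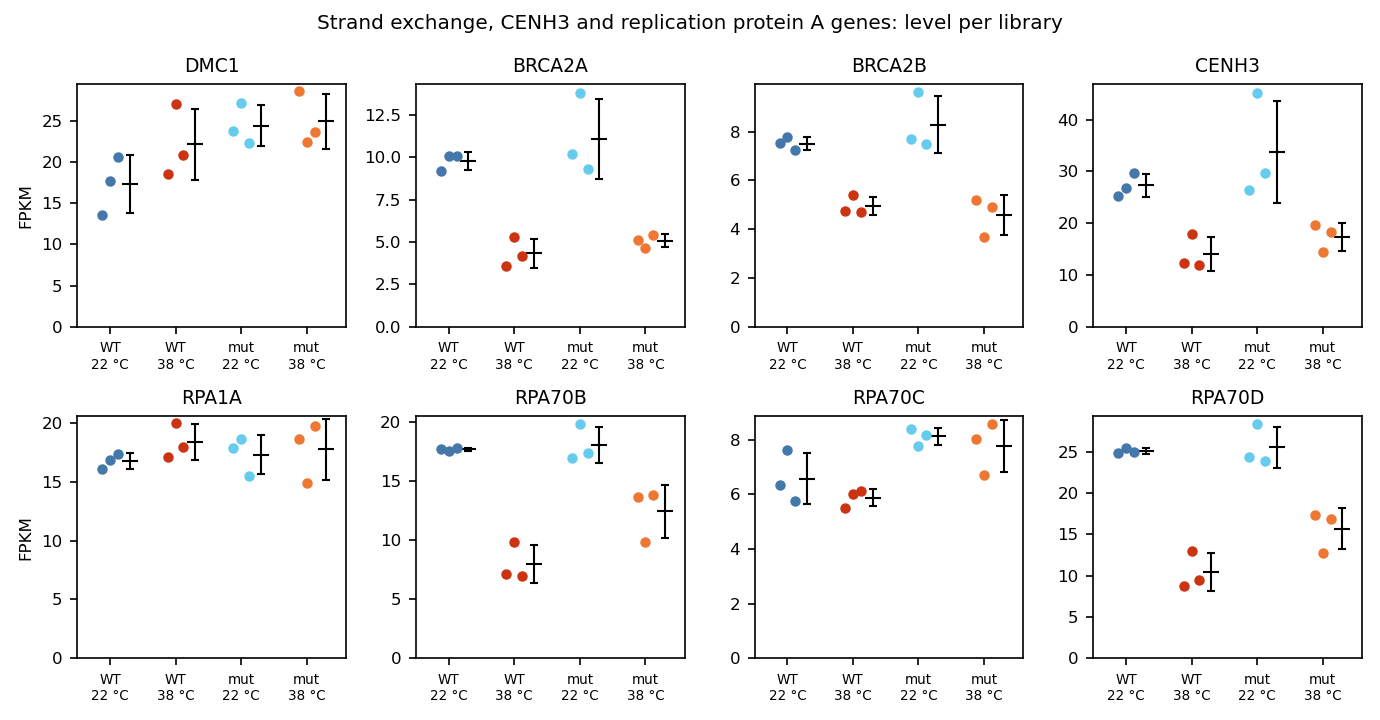
FPKM in each library (points) with the group mean and SD (bars, n = 3) for DMC1, the BRCA2 genes, 4 large subunit genes of replication protein A and CENH3; WT is the wild type and mut the mutant. BRCA2A, BRCA2B, RPA70B, RPA70D and CENH3 are lower at 38 °C in both genotypes, while the points of DMC1, RPA1A and RPA70C overlap between the temperatures. On CPM, not shown, the heated wild-type libraries of RPA70C all lay below the unheated ones, and its mutant groups overlapped.

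The 250 bases upstream of the gene start are shown for 4 genes that fell in both genotypes under every setting and for DMC1, which did not pass, so that their promoters can be compared. They were read 5′ to 3′ on the gene's strand from the TAIR10.1 assembly, whose nuclear chromosomes carry the coordinates of the TAIR10 build, at gene starts taken from the deposited table. The windows are chr3:8100821-8101070 (DMC1, minus strand), chr4:10456-10705 (BRCA2A, minus), chr5:2571857-2572106 (RPA70B, plus), chr5:24552724-24552973 (RPA70D, minus) and chr1:143314-143563 (CENH3, plus). Capitals mark matches on either strand to TTTNNCGC, a pattern that takes in the site of E2F factors, which are known for driving S-phase genes; GAANNTTC, the core of the heat shock element and its own reverse complement, was searched too and is in none of these windows.
DMC1: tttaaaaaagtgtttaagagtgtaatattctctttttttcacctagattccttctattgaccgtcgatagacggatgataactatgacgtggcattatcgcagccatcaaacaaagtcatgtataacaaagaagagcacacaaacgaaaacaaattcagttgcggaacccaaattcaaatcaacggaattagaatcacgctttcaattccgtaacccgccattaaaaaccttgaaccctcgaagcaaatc
BRCA2A: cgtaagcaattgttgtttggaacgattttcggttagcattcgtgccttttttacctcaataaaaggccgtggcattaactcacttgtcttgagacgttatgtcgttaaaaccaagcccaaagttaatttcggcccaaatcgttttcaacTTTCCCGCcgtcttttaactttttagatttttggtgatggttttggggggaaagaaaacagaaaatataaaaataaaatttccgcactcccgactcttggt
RPA70B: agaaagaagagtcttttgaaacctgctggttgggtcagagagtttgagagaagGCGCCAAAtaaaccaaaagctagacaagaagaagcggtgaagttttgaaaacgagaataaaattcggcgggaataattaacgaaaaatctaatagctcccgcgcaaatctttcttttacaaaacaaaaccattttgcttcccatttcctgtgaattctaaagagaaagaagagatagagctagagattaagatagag
RPA70D: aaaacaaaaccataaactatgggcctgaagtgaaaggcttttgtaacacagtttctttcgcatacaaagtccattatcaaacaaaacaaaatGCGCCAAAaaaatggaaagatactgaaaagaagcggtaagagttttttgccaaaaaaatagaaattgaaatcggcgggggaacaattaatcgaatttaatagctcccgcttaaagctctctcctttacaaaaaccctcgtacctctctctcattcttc
CENH3: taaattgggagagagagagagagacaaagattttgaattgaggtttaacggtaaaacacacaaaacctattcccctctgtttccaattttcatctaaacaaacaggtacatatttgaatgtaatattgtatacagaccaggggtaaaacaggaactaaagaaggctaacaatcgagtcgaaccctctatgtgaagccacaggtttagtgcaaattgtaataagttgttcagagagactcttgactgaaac

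BRCA2A held TTTCCCGC, at 101 to 94 bases before the gene start, and RPA70B and RPA70D each held GCGCCAAA, the pattern read on the other strand. Matches in related genes, such as RPA70B and RPA70D, are not separate observations. ZYP1A and RMI1 also had a match. In all, 6 of the 14 genes that fell in both genotypes had one (42.9%). Both genes of a related pair were counted, so the 6 are not 6 separate observations. The share was 6.67% of 27432 windows over all genes, 17.2% of the 64 genes and 7.5% of the 40 not called lower in either genotype. Those 40 include AT1G52950, which was not tested and had a match. GAANNTTC was found in 9.71% of all windows, 9.38% of the 64 and 1 of the 14, and the longer heat shock element that contains it, with a further GAA 2 bases on, in 0.437% of all windows and in 0 of the 64. The motifs were chosen with the heat results known, and whether a window reaches into a neighbouring gene was not examined.

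Break formation was measured at low levels throughout. SPO11-1, which makes the meiotic breaks, was at 1.61, 2.7 and 1.13 FPKM in the wild type at 22 °C, 0.962, 1.57 and 1.22 at 38 °C, 1.56, 2.15 and 1.31 in the mutant at 22 °C and 1.49, 1.07 and 1.35 at 38 °C, and its groups overlapped. SPO11-2, its partner, ranged from 0.258 to 1.09 FPKM; each heated wild-type library was below each unheated one, yet it did not pass (log2 fold change -1.27, adjusted p = 0.0666, SE 0.48; DESeq2 adjusted p = 0.0318). SPO11-2 shares 461 bases with a gene on the opposite strand that averaged 86.0 FPKM, and the strand setting of the counting is not given. DFO, a plant factor for break formation, ran from 0.302 to 1.87 FPKM, with log2 fold change -1.08, adjusted p = 0.153, SE 0.54 in the wild type. AT1G60460, annotated to meiotic break formation, ran from 0.739 to 1.78 FPKM, with log2 fold change 0.61, adjusted p = 0.121, SE 0.27 in the mutant. By edgeR 0 of the 4 genes passed in either genotype, while DESeq2 called SPO11-2 in the wild type. Of all genes, edgeR called 30.7% in the wild type and 24.9% in the mutant.

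The kinases ATM and ATR, which signal broken and single-stranded DNA, had log2 fold changes of opposite sign in both genotypes. ATM was at 5.96, 6.35 and 5.88 FPKM at 22 °C and 7.83, 8.54 and 7.12 at 38 °C in the wild type, each heated library above each unheated one, and missed the threshold (log2 fold change 0.27, adjusted p = 0.0530, SE 0.10; adjusted p = 0.0336 with DESeq2 size factors). ATR was at 2.16, 2.82 and 2.04 FPKM at 22 °C and 2.03, 1.47 and 1.71 at 38 °C in the mutant and fell there (log2 fold change -0.54, adjusted p = 0.0180, SE 0.14), with no overlap. That call was lost without mutant replicate 2 at 22 °C, replicate 2 at 38 °C or replicate 3 at 38 °C. In the wild type ATR had -0.30, adjusted p = 0.136, SE 0.14.

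All 5 axis and synapsis genes had log2 fold changes below 0 in both genotypes. Of these, 1 fell in the wild type and 3 in the mutant, where 16.4% and 13.6% of all genes fell. ZYP1A, a protein of the synaptonemal complex, was at 1.64, 2.37 and 2.28 FPKM in the wild type at 22 °C and 1.26, 1.5 and 1.62 at 38 °C. In the mutant ZYP1A was at 3.12, 3.18 and 2.05 FPKM at 22 °C and 1.54, 1.45 and 1.46 at 38 °C. Heated libraries lay below unheated ones in both genotypes, by the narrowest margin between 1.62 and 1.64 FPKM in the wild type. ZYP1A fell in the mutant (log2 fold change -1.01, adjusted p = 0.00543, SE 0.21) and in the wild type (log2 fold change -0.62, adjusted p = 0.0411, SE 0.21). The wild-type call was lost without any single library other than wild-type replicate 1 and mutant replicate 3 at 22 °C. Its near-identical copy ZYP1B was at 3.06, 2.73 and 3.53 FPKM in the wild type at 22 °C, 3.63, 3.25 and 2.56 at 38 °C, 3.05, 5.39 and 2.77 in the mutant at 22 °C and 3.17, 1.95 and 2.84 at 38 °C, overlapped between temperatures and did not pass (log2 fold change -0.08, adjusted p = 0.852, SE 0.26 and -0.60, adjusted p = 0.114, SE 0.26); how shared reads were divided between the copies is not known.

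ASY3, a chromosome axis protein, fell in the mutant (log2 fold change -0.41, adjusted p = 0.0352, SE 0.13), with 10.9, 14.1 and 10.5 FPKM at 22 °C and 10.3, 9.47 and 8.96 at 38 °C. The heated libraries were all lower, and the call was lost without wild-type replicate 2 or 3 at 22 °C, mutant replicate 2 at 22 °C or any single heated mutant library. AT2G33793, annotated to the synaptonemal structure, was at 13, 17.9 and 11.7 FPKM at 22 °C and 11.4, 8.67 and 11.7 at 38 °C in the mutant, where mutant replicate 3 had equal levels at both temperatures to 3 digits. It passed narrowly (log2 fold change -0.53, adjusted p = 0.0488, SE 0.18) and lost the call in 10 of the 12 fits without 1 library, with the highest adjusted p, 0.246, without mutant replicate 2 at 22 °C. AT4G24710, annotated as a pachytene checkpoint-like protein, had -0.15, adjusted p = 0.547, SE 0.16 in the wild type and -0.39, adjusted p = 0.107, SE 0.17 in the mutant.

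Of the 10 genes placed in crossover formation, 1 fell in the wild type and 3 in the mutant, beside 16.4% and 13.6% of all genes. MSH4, whose complex with MSH5 stabilises crossover intermediates, was at 1.15, 1.15 and 1.08 FPKM in the wild type at 22 °C and 0.493, 0.675 and 0.653 at 38 °C. In the mutant MSH4 was at 1.24, 1.91 and 0.796 FPKM at 22 °C and 0.899, 0.55 and 0.658 at 38 °C. It fell in both (log2 fold change -0.99, adjusted p = 0.0361, SE 0.32 and -1.01, adjusted p = 0.0389, SE 0.32), with overlap in the mutant, where replicate 3 at 22 °C lay below replicate 1 at 38 °C. The wild-type call was lost without any single wild-type library and the mutant call without 8 single libraries, mutant replicate 2 at 22 °C most of all (adjusted p = 0.179). MSH4 also shares 44 bases with an opposite-strand gene at 515 FPKM. Its partner MSH5 ran from 2.55 to 4.43 FPKM and overlapped between temperatures in the mutant. On FPKM it was higher in each heated wild-type library, while on CPM the wild-type groups overlapped. MSH5 did not pass (log2 fold change 0.19, adjusted p = 0.488, SE 0.19 and -0.17, adjusted p = 0.565, SE 0.19).

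HEI10, a RING protein whose dosage sets crossover number, was at 8.28, 10.1 and 11 FPKM in the wild type at 22 °C and 8.92, 10.5 and 11.6 at 38 °C. In the mutant HEI10 was at 9.29, 13.6 and 12.3 FPKM at 22 °C and 9.83, 7.79 and 8.43 at 38 °C. Wild-type values overlapped (log2 fold change -0.01, adjusted p = 0.958, SE 0.16). In the mutant HEI10 fell (log2 fold change -0.54, adjusted p = 0.0295, SE 0.16), although replicate 1 at 22 °C (9.29 FPKM) lay below replicate 1 at 38 °C (9.83 FPKM); on CPM the groups did not overlap. The mutant call was lost without mutant replicate 2 or 3 at either temperature. HEI10 shares 1446 bases with an opposite-strand gene at 50.6 FPKM. RCK, the helicase of the crossover pathway, fell in the mutant, from 1.45, 1.7 and 1.49 FPKM at 22 °C to 0.876, 1.01 and 1.07 at 38 °C (log2 fold change -0.75, adjusted p = 0.0172, SE 0.20), without overlap, but not without replicate 2 at 22 °C or replicate 1 at 38 °C. MLH3, which acts on crossover intermediates, MSH3, a mismatch repair protein, MCC1, a histone acetyltransferase, AXR1, RFC1, the large subunit of the replication clamp loader, and AT1G12790, annotated to the resolution of recombination intermediates, passed in neither genotype. Their log2 fold changes ran from -0.26 (MCC1) to 0.38 (MLH3) in the wild type and from -0.17 (RFC1) to 0.22 (AT1G12790) in the mutant.

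Of the 4 genes whose products limit crossovers, 3 fell in the wild type and 2 in the mutant, where 16.4% and 13.6% of all genes fell. FANCM, a helicase that turns recombination intermediates away from crossing over, was at 2.01, 2.53 and 2.88 FPKM in the wild type at 22 °C and 1.42, 1.65 and 1.11 at 38 °C. In the mutant FANCM was at 1.89, 2.59 and 2.35 FPKM at 22 °C and 1.84, 1.49 and 1.52 at 38 °C. Heated libraries were below unheated ones in both genotypes. It fell by 0.92 on the log2 scale in the wild type (SE 0.19, adjusted p = 0.00430). The mutant call (log2 fold change -0.60, adjusted p = 0.0421, SE 0.19) was lost without replicate 2 of the unheated wild type, replicate 1 of the heated wild type, replicate 2 or 3 of the unheated mutant or any single heated mutant library. RMI1, part of a complex that unlinks DNA strands, was at 2.85, 2.82 and 2.52 FPKM in the wild type at 22 °C, 1.26, 1.7 and 2.16 at 38 °C, 2.76, 3.24 and 2.69 in the mutant at 22 °C and 1.94, 1.26 and 1.69 at 38 °C, without overlap.

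RMI1 fell in both (log2 fold change -0.77, adjusted p = 0.0183, SE 0.21 and -0.94, adjusted p = 0.00929, SE 0.22), and its wild-type call was lost without any single wild-type library at 22 °C or wild-type replicate 1 at 38 °C. MHF1, a cofactor of FANCM, was at 7.15, 7.38 and 9.23 FPKM at 22 °C and 5.82, 3.72 and 3.49 at 38 °C in the wild type and fell (log2 fold change -0.96, adjusted p = 0.0423, SE 0.32). In the mutant MHF1 was at 4.91, 9.21 and 8.56 FPKM at 22 °C and 3.85, 7.91 and 7.22 at 38 °C, with overlap (-0.35, adjusted p = 0.454, SE 0.32). Its wild-type call was lost without any single unheated wild-type library, replicate 2 or 3 of the heated wild type or replicate 3 of either mutant group. TOP3A, the topoisomerase that works with RMI1, ran from 15.6 to 29.5 FPKM and did not pass (log2 fold change -0.19, adjusted p = 0.392, SE 0.15 and -0.42, adjusted p = 0.0666, SE 0.15).

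CENH3, the histone variant that marks centromeres in mitosis and meiosis, was at 25.3, 26.8 and 29.7 FPKM in the wild type at 22 °C and 12.3, 17.9 and 12 at 38 °C. In the mutant CENH3 was at 26.5, 45 and 29.7 FPKM at 22 °C and 19.6, 14.4 and 18.22 at 38 °C. All heated libraries lay below all unheated ones, and the 45 FPKM of mutant replicate 2 was the highest value. CENH3 fell to 48.2% in the wild type (log2 fold change -1.05, adjusted p = 0.00282, SE 0.21) and to 47.9% in the mutant (log2 fold change -1.06, adjusted p = 0.00389, SE 0.21). The genes of meiotic entry and exit grouped with it did not pass. TDM1 was at 0.505, 0.335 and 0.284 FPKM in the wild type at 22 °C and 1.57, 0.6 and 0.774 at 38 °C. In the mutant TDM1 was at 0.384, 0.439 and 0.679 FPKM at 22 °C and 0.943, 0.675 and 0.55 at 38 °C. MMD1 was at 0.152, 0.164 and 0.111 FPKM in the wild type at 22 °C and 0.529, 0.0896 and 0.976 at 38 °C. In the mutant MMD1 was at 0.262, 0.0955 and 0.186 FPKM at 22 °C and 0.164, 0.249 and 0.156 at 38 °C.

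Both had their highest value in a heated wild-type library, TDM1 in replicate 1 and MMD1 in replicate 3, and MMD1 was at 0.0896 FPKM in heated wild-type replicate 2. The log2 fold changes in the wild type were large with large errors for TDM1 (1.3, adjusted p = 0.0607, SE 0.48) and MMD1 (1.79, adjusted p = 0.0846, SE 0.73), and DESeq2 called both (adjusted p = 0.0156 and 0.0247). SWI1 ran from 0.0703 to 0.964 FPKM, its lowest value in heated mutant replicate 3, and had -0.41, adjusted p = 0.675, SE 0.65 in the wild type and -0.82, adjusted p = 0.390, SE 0.66 in the mutant.

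The gamma-tubulin complex, which starts microtubules in the spindle, contributed 6 genes, of which 1 rose in the wild type and 1 fell in the mutant. These counts were near the background, where 14.3% of all genes rose in the wild type and 13.6% fell in the mutant. AT3G43610, a member of this family by annotation, was at 13.4, 14.6 and 13 FPKM in the wild type at 22 °C and 19.9, 21.8 and 18.4 at 38 °C. In the mutant AT3G43610 was at 13.1, 13.8 and 14.4 FPKM at 22 °C and 17.7, 15.1 and 16.6 at 38 °C. Heated libraries lay above unheated ones in both genotypes, and it rose in the wild type (log2 fold change 0.46, adjusted p = 0.00143, SE 0.08) but missed the threshold in the mutant (0.15, adjusted p = 0.199, SE 0.08), where the groups overlapped on CPM. EMB1427, a family member named for an embryo phenotype, was at 24.5, 28.8 and 22.6 FPKM at 22 °C and 22.1, 19.9 and 20 at 38 °C in the mutant, without overlap, and fell (log2 fold change -0.39, adjusted p = 0.00808, SE 0.09). In the wild type EMB1427 was at 22.9, 22 and 22.3 FPKM at 22 °C and 22.5, 25.6 and 23.3 at 38 °C, with overlap (-0.01, adjusted p = 0.949, SE 0.09). GCP4, SPC98, AT1G20570 and AT5G17410 did not pass with heat, with log2 fold changes from -0.64 (AT1G20570) to 0.03 (GCP4) in the wild type and from -0.37 (AT1G20570) to 0.11 (SPC98) in the mutant.

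Among the 7 coiled-coil proteins, 1 rose and 1 fell in each genotype. These counts too were near the background, with 14.3% of all genes higher and 16.4% lower in the wild type. In the mutant 11.3% were higher and 13.6% lower. AT3G02930, with no named role in the annotation used, was at 14.4, 13.8 and 13.2 FPKM in the wild type at 22 °C and 21.2, 18.1 and 19 at 38 °C. In the mutant AT3G02930 was at 14, 11.8 and 15.4 FPKM at 22 °C and 18.1, 20 and 20.4 at 38 °C. Heated libraries were all higher, and it rose in the wild type (log2 fold change 0.40, adjusted p = 0.0137, SE 0.10) and the mutant (0.40, adjusted p = 0.0175, SE 0.10). The first call was lost without wild-type replicate 1 at 38 °C and the second without mutant replicate 2 or 3 at 38 °C. AT1G65010, the most abundant of the 64 genes, was at 33.1, 34.6 and 31.3 FPKM in the wild type at 22 °C, 28.2, 28.2 and 25.2 at 38 °C, 36, 34.3 and 36.2 in the mutant at 22 °C and 33.6, 27.6 and 32 at 38 °C and fell in both (log2 fold change -0.37, adjusted p = 0.00477, SE 0.08 and -0.30, adjusted p = 0.0184, SE 0.08). Its mutant call was lost without mutant replicate 1 or 3 at 22 °C or replicate 2 at 38 °C. The other 5 did not pass: GRIP, AT5G16730, AT4G27595, AT4G32190 and AT4G40020 ran in the wild type from -0.71 (AT4G40020) to 0.25 (AT4G32190) and in the mutant from -1.06 (AT4G40020) to 0.18 (AT5G16730). AT4G40020 in the mutant was lower in each heated library and did not pass (adjusted p = 0.122, SE 0.47).

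LHL3, annotated as a transcription factor, and RHL2, a subunit of the plant topoisomerase VI used when cells raise their ploidy, completed the set. LHL3 was at 5.25, 5.28 and 4.1 FPKM in the wild type at 22 °C and 2.93, 4.11 and 3.21 at 38 °C. In the mutant LHL3 was at 4.59, 5.64 and 3.97 FPKM at 22 °C and 3.45, 2.7 and 3.01 at 38 °C. In the wild type replicate 3 at 22 °C (4.10 FPKM) and heated replicate 2 (4.11 FPKM) met, while the mutant groups did not overlap. LHL3 fell in both (log2 fold change -0.60, adjusted p = 0.0242, SE 0.18 and -0.74, adjusted p = 0.0122, SE 0.18), but in the wild type not without replicate 1 or 2 at 22 °C or replicate 1 or 3 at 38 °C, and in the mutant not without replicate 2 at 22 °C. RHL2 was at 16.8, 17.5 and 15.4 FPKM at 22 °C and 12.2, 13.6 and 14 at 38 °C in the wild type, without overlap, and fell (log2 fold change -0.41, adjusted p = 0.0245, SE 0.12), a call lost without any single wild-type library except replicate 3 at 38 °C. RHL2 had -0.23, adjusted p = 0.198, SE 0.12 in the mutant.

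The second question was whether the XBAT31 mutation changed these genes. At 22 °C edgeR called 0 of the 63, where 0.161% of all genes were higher, 0.0297% lower and 0.191% either. At an unadjusted p below 0.05 there were 3, all higher in the mutant: DMC1 (log2 fold change 0.46, adjusted p = 0.659, SE 0.17), RPA70C (0.27, adjusted p = 0.676, SE 0.11) and AT2G33793 (0.43, adjusted p = 0.676, SE 0.18). DESeq2 and limma also called 0. For DMC1 the mutant libraries (22.3 to 27.2 FPKM) all lay above the wild-type ones (13.6 to 20.5 FPKM), and on CPM 3 genes had all mutant libraries higher and 0 had all lower, against 5.63% and 6.15% of all genes. The median over the 63 genes was 0.11, and 0.02 without mutant replicate 2 at 22 °C, the library that was highest for 34 of them.

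At 38 °C 3 genes (4.76%) were higher and 2 (3.17%) lower in the mutant. Of all genes 4.36% were higher and 5.26% lower (9.62% in either direction), so these counts were near or below the background. RPA70B and RPA70D, both among the higher ones, are a related pair. RPA70B was at 7.1, 9.8 and 6.95 FPKM in the wild type, against 13.7, 9.8 and 13.8 in the mutant, and its groups touched at 9.80 FPKM. It was higher in the mutant (log2 fold change 0.60, adjusted p = 0.0248, SE 0.15). RPA70D was at 8.81, 13 and 9.5 FPKM in the wild type, against 17.3, 12.8 and 16.9 in the mutant, with the overlap between wild-type and mutant replicate 2 given above, and was higher too (log2 fold change 0.54, adjusted p = 0.0342, SE 0.14). SPC98, a core gamma-tubulin complex subunit, was at 9.07, 10 and 10.6 FPKM in the wild type, against 14.2, 11.7 and 15.3 in the mutant, without overlap (log2 fold change 0.43, adjusted p = 0.0166, SE 0.10).

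The lower ones were AT4G32190, at 12.3, 10.9 and 10.9 FPKM in the wild type, against 9.23, 8.63 and 8.05 in the mutant (log2 fold change -0.44, adjusted p = 0.0113, SE 0.09), and AT3G43610, at 19.9, 21.8 and 18.4 FPKM in the wild type, against 17.7, 15.1 and 16.6 in the mutant (log2 fold change -0.33, adjusted p = 0.0247, SE 0.08). Both were lower in each mutant library than in each wild-type one. None of RPA70B, RPA70D, SPC98, AT4G32190 and AT3G43610 passed without replicate 1 of the heated wild type, nor without replicate 3 of the heated mutant. The count of 5 was 2 without replicate 1 of the heated mutant and 3 without replicate 3 of the heated wild type. Calls over all genes went from 2269 to 1575 and 1640. At an unadjusted p below 0.05 there were 10 genes, 6 higher and 4 lower. BRCA2A and CENH3 did not pass at 38 °C (log2 fold change 0.18, adjusted p = 0.560, SE 0.15 and 0.26, adjusted p = 0.522, SE 0.20).

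A direct test of whether the heat response differed between the genotypes called 0 of the 63 genes by edgeR, against 1.59% of all genes (0.407% with a higher and 1.18% with a lower response in the mutant). Unadjusted, 8 genes were below 0.05, 3 with a higher and 5 with a lower log2 fold change in the mutant. RPA70B and RPA70D had differences of 0.60 (SE 0.21, adjusted p = 0.180) and 0.55 (SE 0.20, adjusted p = 0.208). EMB1427 had -0.38 (SE 0.12, adjusted p = 0.157). DESeq2 called EMB1427 and GRIP (adjusted p = 0.0271 and 0.0433), both with a lower response in the mutant, and limma called 0.

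Other genes of the pathway, from a list of 36 tested genes that do not carry the chosen annotation, were read beside them. In the wild type 5 rose and 9 fell with heat, where 14.3% of all genes rose and 16.4% fell, so the number that rose was near the background. In the mutant 1 rose and 10 fell, where 11.3% of all genes rose and 13.6% fell. By edgeR 0 passed between the genotypes at 22 °C, at 38 °C or in the difference of the responses. At an unadjusted p below 0.05 there were 1, 4 and 2, DESeq2 called 0, 1 and 0, and limma called 0 in each. RAD50, part of the complex that trims broken ends, rose in both (0.68, SE 0.10, adjusted p = 3.92e-04 in the wild type and 0.32, SE 0.10, adjusted p = 0.0304 in the mutant). ASY1, the axis partner of ASY3, rose in the wild type, from 3.29 ± 0.30 to 6.38 ± 1.04 FPKM (SD, n = 3; adjusted p = 0.0347). PRD2, a break formation factor, and WAPL2, which releases cohesin, rose there as well (0.42 and 0.38).

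COM1, which starts end trimming, fell in both genotypes (-0.73 and -0.75), as did the cohesin subunit SMC3 (-0.69 and -0.47), the anti-crossover helicase gene RECQ4B (-0.42 and -0.42) and AT3G27120 (-1.03 and -1.11). AT3G14190 fell in both, from 51.1 ± 2.4 to 27.5 ± 8.2 FPKM in the wild type and from 65.1 ± 14.2 to 27.9 ± 2.9 FPKM in the mutant. SHOC1, a crossover factor, fell in the wild type (-1.05) and had -0.79 with an adjusted p of 0.0696 in the mutant. RAD51B, also a repair gene, fell in the mutant (-1.90) and had -1.62 with an adjusted p of 0.0563 in the wild type. RAD51B averaged under 2 FPKM in each group. The others that passed were OSD1, a regulator of the second meiotic division, which rose in the wild type (0.60), and JASON, which acts on spindle placement in that division and fell in the wild type (-0.44). AT1G77720 (-0.76 and -0.76) and ASK1, a ubiquitin ligase subunit (-0.38 and -0.31), fell in both genotypes, and the cohesin subunits SMC1 (-0.50) and SCC3 (-0.33) fell in the mutant.

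Cell type markers were read in the same libraries, because several of these genes also act in dividing cells. Of 8 mitotic cell cycle markers, 8 fell in the wild type (median -0.85) and 6 fell and 1 rose in the mutant (median -0.51); the marker that rose was CDKB1;2. That marker was at 5.2 to 5.91 FPKM in the unheated mutant, below the 16.3 to 17.3 FPKM of the unheated wild type. With heat it was at 15.5 to 18.8 FPKM in the mutant and 8.73 to 11.6 FPKM in the wild type. DESeq2 called 8 and 7 of the 8 markers and limma 6 and 4. By edgeR 16.4% of all genes fell in the wild type and 13.6% in the mutant. Between the heated groups, 3 of the 8 mitotic markers were higher in the mutant and 5 did not pass, where 4.36% of all genes were higher. None of the 8 was at 0 in any library. Their summed level was 325 to 350.1 FPKM in the wild type at 22 °C, 165 to 247 at 38 °C, 339 to 439 in the mutant at 22 °C and 249 to 323 at 38 °C. The part of dividing cells in the lower levels of the BRCA2 genes, RPA70B, RPA70D and CENH3 was not tested. Of 11 tapetum markers, DYT1 fell in the wild type, from 3.19 ± 1.51 to 0.206 ± 0.179 FPKM (SD, n = 3; adjusted p = 0.0315), and 10 did not pass; in the mutant edgeR called 0 of the 11, with 1 below 0.05 unadjusted and 1 called by each of DESeq2 and limma. The tapetum sum spanned 95.9 to 213 FPKM within the unheated wild type alone. Of 12 maturing pollen markers, edgeR called 0 in either genotype, with medians of -0.69 and -0.77; 3 and 2 were below 0.05 unadjusted, DESeq2 called 2 and 1 and limma called 1 and 1. Of the tapetum and pollen markers, DYT1 was at 0 in 2 libraries and GEX2 in 4. The pollen sum ranged from 948 to 3462 FPKM among the heated mutant libraries. Of 8 photosynthesis markers, 2 rose in each genotype, where 14.3% of all genes rose in the wild type and 11.3% in the mutant.

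**Figure D5:**
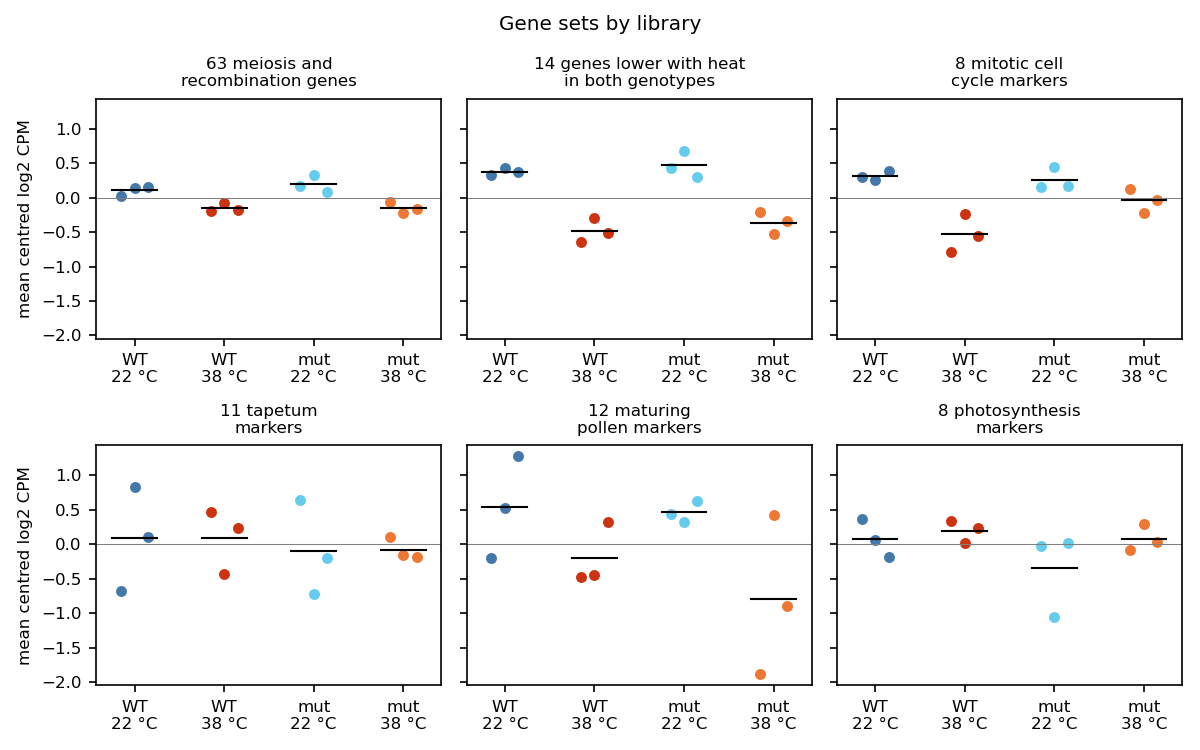
Mean over a gene set of the centred log2 CPM in each library (points) with the group mean (line), for the 63 tested genes, the 14 that fell in both genotypes and 4 marker sets; WT is the wild type and mut the mutant. The 14 genes, chosen for falling in both, and the mitotic markers are lower at 38 °C, and the tapetum and pollen markers spread within groups.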

How the data were processed

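Messenger RNA was sequenced from flowers in 12 libraries, 3 in each of 4 groups. The authors deposited 1 table with estimated counts per gene and FPKM, beside each gene's position and gene ontology terms. Per the submitters' processing notes, the tools were HISAT2 2.0.4, StringTie 1.3.4d and cutadapt 1.9, on the TAIR10 build; strand settings are not given in the sources used here. The deposited counts were not all whole and were rounded. Low counts favoured multiples of 4 (47.2% of counts up to 20 in genes with 1 transcript, beside 25% with an even spread), which leaves the number of fragments behind a low count uncertain. Library totals were 44983198 to 63088433 counts.

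Genes were tested with edgeR 4.0.16 (R 4.3.3; TMM scaling, a minimum count of 10 in its expression filter, 1 mean per group over the 12 libraries, 8 residual degrees of freedom, quasi-likelihood, two-sided). This left 23585 genes and removed 4130; p-values were adjusted by Benjamini-Hochberg over the genes left, with a threshold of 0.05. The biological coefficient of variation was 25.1%. FPKM values, as the authors deposited them, give the levels; a level is relative to the library, and only FPKM levels are compared between genes. DESeq2 1.42.0, limma 3.58.1 on log2(FPKM + 1) or log2(FPKM + 0.1), other scalings and filters, the replicate number as a block and fits without single libraries were the alternatives. The edgeR steps were tested on simulated data.

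The members, the pathway and marker lists and the alternatives were chosen with earlier results of these data known. Results of some genes and 1 promoter are not reported here, though counts over the set include them. Of the rest, those past the threshold and those with the smallest p in each role were given with their statistics, and genes of the pathway list were named where they passed, up to 20 per comparison. Ratios between genes, the motifs and the annotation terms were added after values were seen. Of the 64 genes, 11 overlap another gene on the opposite strand, and ZYP1A and ZYP1B, BRCA2A and BRCA2B, and RPA70B and RPA70D are related pairs whose reads may be divided uncertainly. All 64 lie at the same locus in TAIR10.1, the RefSeq assembly read for promoters, but 6 have the same start and end in both annotations.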

Additional observations from a re-analysis of the deposited data

How the results depend on the processing

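No gene of the set that passed changed direction under any of the 23 alternatives. The count of 22 genes that passed with heat in the mutant became 13 with only the mutant libraries fitted, 14 with limma on log2(FPKM + 0.1) and 14 without the 3 libraries that stood apart. The 5 genes that passed between the genotypes at 38 °C became 1 with only the heated libraries fitted. They became 2 with the replicate number as a block and 3 without those 3 libraries. Calls over all genes went from 2269 to 1825, 1767 and 1654. DESeq2 called 2 genes of the set for the difference of the heat responses, and 1842 over all genes. Without single libraries the counts ran from 11 to 23 for heat in the wild type and 14 to 22 for heat in the mutant. Those fits gave 5139 to 7894 and 4017 to 5726 calls over all genes. For the set the counts ran from 0 to 6 for the genotype at 38 °C. They were 0 to 0 for the genotype at 22 °C and for the difference. The causes were not tested. Replicate numbers did not pair the libraries: over 18 same-numbered pairs the correlation of deviations ran from -0.28 to 0.27, 2 pairs exceeded 0.1, and 4 of 12 libraries matched best with their own number. With the replicate block 18 genes passed with heat in the wild type, 19 in the mutant, 0 at 22 °C and 0 for the difference. The calls over all genes were 6496 and 5012 for the heat comparisons. For heat in the mutant, limma on FPKM gave log2 fold changes higher than edgeR's by a median of 0.103 to 0.107 over all genes. The fit of only the groups compared gave no value for the difference of the responses, which needs all 4 groups. SPO11-2, MMD1, TDM1 and SWI1, each under 1 FPKM on average, had wide errors, and edgeR called none of them with heat in either genotype, while DESeq2 called SPO11-2, MMD1 and TDM1 in the wild type.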
